A study of Mus musculus with 9 samples.

Results

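The genes described here encode the machinery with which a cell makes secreted and membrane proteins in the endoplasmic reticulum (ER): the particle and channel that bring new chains in, the chaperones and disulfide isomerases that fold them, the degradation system that clears misfolded ones, the sensors of folding stress, and the carriers that move finished cargo on. A list of 40 gene names defined the set. A probe belonged to it when the gene name on the array was one of these names, which took in 67 probes of 37 genes out of 41174 probes on the array. Of these probes 65 were bright enough to be tested. The other 2, 1 of the Hyou1 and 1 of the Lman1 probes, were not. The remaining 3 names, Sel1l, Srp54a and Manf, stand on the array under older names (Sel1h, Srp54 and Armet), were found through their RefSeq accessions with 6 further probes, and are kept apart from the counts, except that Sel1l and Srp54a are among the genes with a promoter window.

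Secreted proteins start as chains with a signal sequence, which the signal recognition particle binds and delivers to the Sec61 channel in the ER membrane, where signal peptidase removes it. Inside, chaperones such as the Hsp70 protein BiP and disulfide isomerases fold the chain, and the membrane sensors Ern1 (IRE1), Atf6 and Eif2ak3 (PERK) respond when unfolded chains build up and raise many of these genes, the unfolded protein response. The luminal cells of the prostate are secretory and release large amounts of protein into the seminal fluid.

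Cells were taken from the prostates of BL6 mice and separated by flow sorting after antibody staining. The marker-positive group, labelled stem cell, lacked lineage antigens and carried CD44, CD133, Sca-1 and CD117 together (3 arrays). The marker-negative group was lineage-negative and also negative for all 4 of those antigens (6 arrays). Both groups carry the same strain background, no transgene or treatment is named, and the age and number of the mice and whether the arrays come from separate animals are not stated, so the p-values reflect only how far the arrays of a group differ, and part of that may be technical. RNA was amplified before labelling. Every array held the sorted cells' RNA in Cy5 and a commercial pooled mouse reference RNA in Cy3, with no dye swap, so each value is the log2 ratio of sorted cells to that reference on the same probe, and a difference is marker-positive minus marker-negative. In sorted bulk RNA, fewer cells of a type and less RNA per cell cannot be told apart.

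The arrays lay on 5 slides, and 45.4 to 69.3% of the probes gave a Cy5 signal well above background on marker-positive arrays, against 47.5 to 69.4% on marker-negative arrays. Marker-positive replicate 3 stood apart: it had the lowest share, was alone on its slide, and its log2 ratios correlated with those of replicates 1 and 2 at 0.609 and 0.582, against 0.923 between those 2. Across all 19848 genes tested with limma, 1.67% were called lower and 1.57% higher in the marker-positive group, a call being an adjusted p under 0.05 (Benjamini-Hochberg over all tested probes). Prostate secretory markers (7 measured, such as Msmb and Pbsn) averaged 4.52 to 5.47 log2 above the reference on marker-positive arrays and 6.73 to 7.92 on marker-negative arrays, and 4 of the 7 were called lower. Luminal epithelial markers averaged -0.69 to 1.62 on marker-positive and 1.26 to 3.21 on marker-negative arrays (1 of 8 called lower). Macrophage markers averaged 3.98 to 5.0 against 0.35 to 3.03 (3 of 9 called higher), and mast cell markers 3.65 to 4.68 against 0.24 to 3.16 (3 of 6 called higher). T and NK cell markers averaged -0.08 to 1.12 against 2.47 to 5.34 (6 of 8 called lower). Both groups were sorted as lineage-negative, but which antigens that gate covered is not given here. Basal, B and plasma cell, fibroblast, endothelial and erythroid lists had 1 of 6 higher, 2 of 8 higher, 0 of 7, 2 of 6 higher and 2 of 3 lower. The part of these other cells in the ER results was not tested.

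The rule used gene names and not the sequence in front of the genes. The list, however, holds known targets of the stress response, so finding an element of that response in them is not independent of the choice. The ER stress response element, CCAAT and CCACG separated by 9 bases of any kind, searched on both strands, is the site through which Atf6 and Xbp1 are known to act together with NF-Y. RefSeq windows (build GRCm38.p6) from 250 bases before to 50 bases after the transcript start were available for 31 of the 40 names. The element was found in 6 of the 31 (19.4%), Hspa5, Hsp90b1, Pdia6, Dnajc3, Syvn1 and Canx. Counted by window, it was in 18.75% of the member windows, against 39 of all 32851 windows (0.119%). The upstream 250 bases of 5 of them follow, 5′ to 3′ with the element in capitals, because these genes include the best known targets of the response and the pair, Pdia6 and Canx, whose probes disagreed most. They come from chr2:34771840-34772089 (plus strand), chr10:86705445-86705694 (minus strand), chr12:17266339-17266588 (plus strand), chr14:118937682-118937931 (plus strand) and chr11:50325674-50325923 (minus strand).
Hspa5: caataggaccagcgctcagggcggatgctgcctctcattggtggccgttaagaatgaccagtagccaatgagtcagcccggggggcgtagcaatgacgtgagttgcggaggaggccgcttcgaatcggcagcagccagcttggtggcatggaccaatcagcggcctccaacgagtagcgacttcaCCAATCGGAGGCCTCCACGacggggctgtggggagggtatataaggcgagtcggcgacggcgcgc
Hsp90b1: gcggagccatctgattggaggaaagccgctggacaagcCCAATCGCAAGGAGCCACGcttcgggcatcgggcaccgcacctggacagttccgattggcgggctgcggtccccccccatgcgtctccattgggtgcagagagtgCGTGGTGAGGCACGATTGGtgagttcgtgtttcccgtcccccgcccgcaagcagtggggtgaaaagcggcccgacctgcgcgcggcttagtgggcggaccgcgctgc
Pdia6: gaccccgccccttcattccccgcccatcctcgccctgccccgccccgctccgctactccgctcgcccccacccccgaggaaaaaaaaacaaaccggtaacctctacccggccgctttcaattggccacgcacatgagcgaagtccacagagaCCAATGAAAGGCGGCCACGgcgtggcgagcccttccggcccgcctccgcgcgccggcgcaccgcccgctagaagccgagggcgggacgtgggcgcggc
Dnajc3: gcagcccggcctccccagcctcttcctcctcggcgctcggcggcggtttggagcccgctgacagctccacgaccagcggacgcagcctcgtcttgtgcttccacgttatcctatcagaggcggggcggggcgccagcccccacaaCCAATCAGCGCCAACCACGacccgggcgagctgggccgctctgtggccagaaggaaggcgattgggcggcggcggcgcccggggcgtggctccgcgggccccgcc
Canx: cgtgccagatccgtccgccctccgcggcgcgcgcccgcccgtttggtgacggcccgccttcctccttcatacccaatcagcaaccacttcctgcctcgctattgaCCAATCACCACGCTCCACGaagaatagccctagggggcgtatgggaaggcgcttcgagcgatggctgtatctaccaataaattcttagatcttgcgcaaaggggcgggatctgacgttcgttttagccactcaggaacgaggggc
The element began 65 bases before the start in Hspa5, 98 in Pdia6, 105 in Dnajc3 and 145 in Canx. Hsp90b1 held 2 copies, the outer of them beginning 212 bases before the start and the inner on the opposite strand. The shorter unfolded protein response element, TGACGTGG on either strand, was found in the window of 1 member, Sec24d, against 222 of all windows (0.676%). The 6 genes with the ER stress response element had differences from -1.72 to 0.39 with a median of -1.29, and the 25 with a window but without it from -1.91 to 0.15 with a median of -0.87. These ranges overlapped.

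Most of the 37 genes had differences below 0, and few of them passed the test one by one. The genes were chosen with earlier results of these data known, so the shares given here describe them and are no test of the set. The difference was below 0 in 34 of 37, where 51.2% of all genes lay below 0, and its median was -0.87, against -0.01 over all tested genes. Only Herpud1 and Srp9 were called lower (2 of 37, or 5.41%, against 1.67% of all genes), and none was called higher. At an unadjusted p under 0.05, 19 of 37 (51.4%) were lower, against 9.83% of all genes, and 0 were higher. Differences of -1 or lower were measured for 15 genes (40.5%, against 7.51% of all genes). In 8 genes (21.6%, against 6.47% of all genes) all 3 marker-positive arrays lay below all 6 marker-negative arrays, namely Herpud1, Srp9, Hyou1, Dnajc3, Sec61g, Ssr4, Spcs2 and Ddit3, while the groups overlapped in the other 29. In 0 genes did all marker-positive arrays lie above, against 5.14% of all genes. Every one of the 37 probes that stood for a gene was well above background on all 9 arrays.

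**Figure D1:**
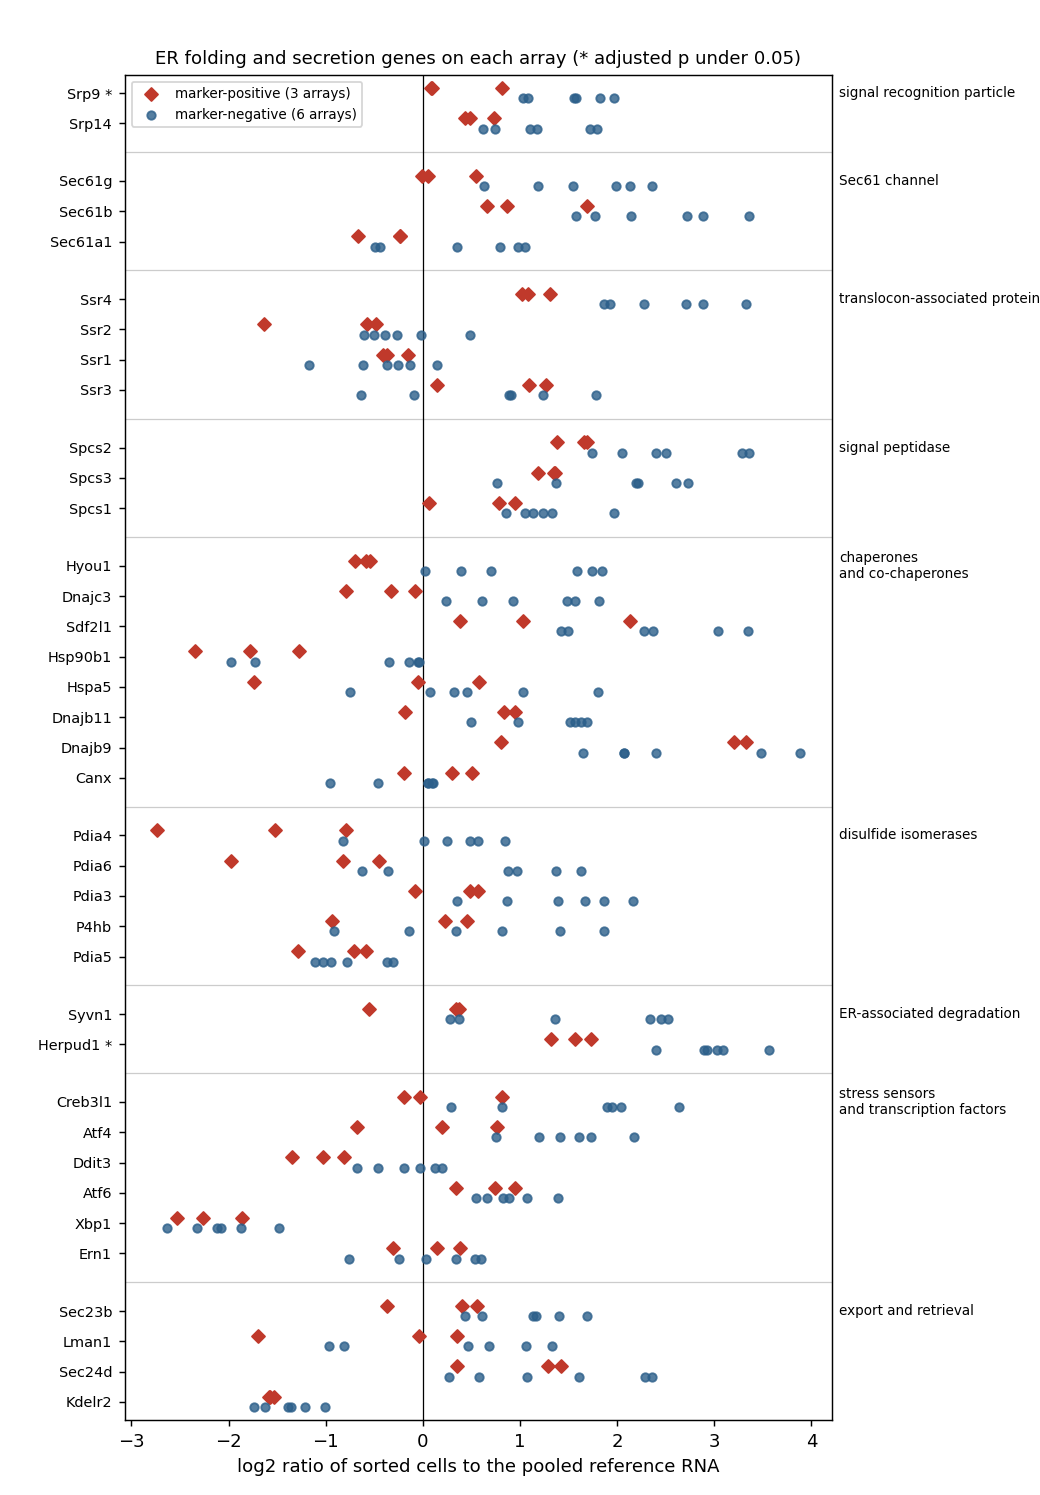
Log2 ratio of sorted cells to the reference RNA (x axis) for the probe standing for each of the 37 genes, grouped by role, with red diamonds for the 3 marker-positive arrays above blue circles for the 6 marker-negative arrays. Diamonds lie left of all circles in 8 genes, among them Herpud1 and Srp9, whose adjusted p was under 0.05.

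The median ratio over the 37 genes was 0.41, 0.20 and -0.20 on the marker-positive arrays. It was 1.40, 1.78, 1.11, 0.27, 1.17 and 0.39 on marker-negative replicates 1 to 6. Marker-negative replicates 4 and 6 were thus close to the marker-positive arrays, and the lowest marker-negative value lay between marker-positive replicates 1 and 2. The median over all tested genes was 0.12 to 0.20 on marker-positive and 0.11 to 0.17 on marker-negative arrays. Within slide 1, which held 1 array of each group, the median difference of the genes was -1.0, and within slide 2, with 1 marker-positive and 2 marker-negative arrays, it was -0.86. With slide as a block it was -0.88. Only slides 1 and 2 held both groups, so that fit takes its difference from them alone and is not separate from the within-slide values. Without marker-positive replicate 3 the median difference was -0.73, with 32 of 37 below 0 and the same 2 genes called, against 2.49% of all genes. The mean ratio was above the reference in 22 of 37 genes in marker-positive and in 29 of 37 in marker-negative cells.

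**Figure D2:**
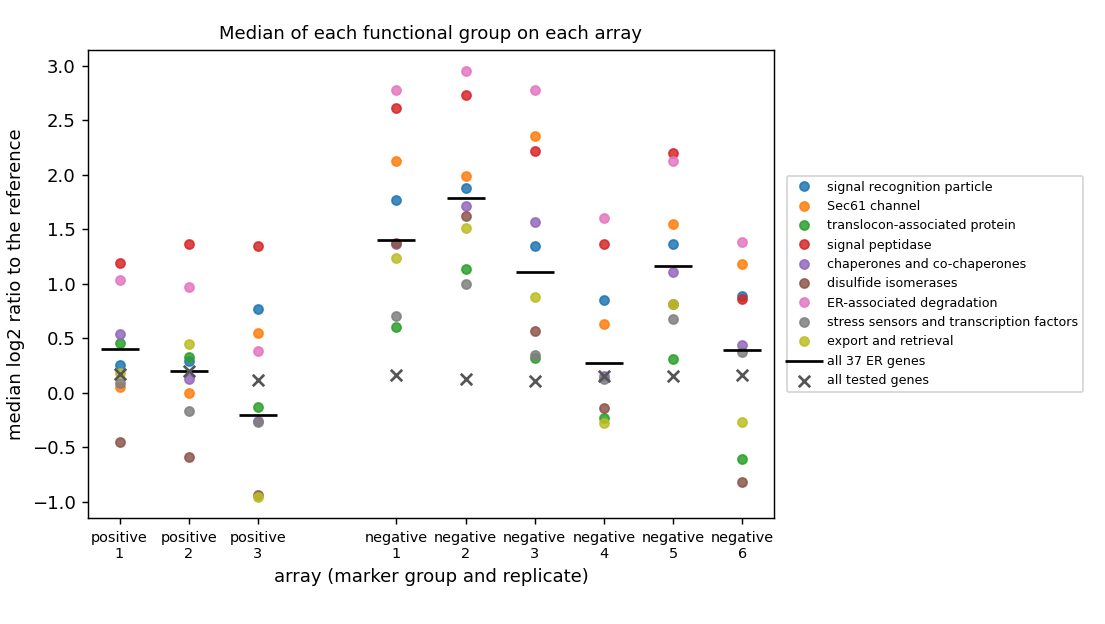
Median log2 ratio to the reference (y axis) of each functional group on each array (x axis, marker-positive arrays left of marker-negative arrays), with black bars for all 37 genes and crosses for all tested genes. The bars run from -0.20 to 0.41 on marker-positive and from 0.27 to 1.78 on marker-negative arrays, while the crosses stay between 0.11 and 0.20.

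The signal recognition particle held the gene with the second smallest adjusted p. Srp9, a small protein of the part of the particle that pauses translation, read 0.09, 0.09 and 0.81 in marker-positive cells, against a lowest value of 1.03, a median of 1.57 and a highest of 1.97 in marker-negative cells. All marker-positive arrays lay below all marker-negative arrays. The difference of -1.18 (SE 0.27, 2.26-fold lower) passed the test with an adjusted p of 0.048. That call rested on small margins: the adjusted p was 0.0766 to 0.190 without marker-positive replicate 1 or 2 or without marker-negative replicate 1, 2, 3 or 5, 0.130 with slide as a block, and 0.0013 to 0.438 over all alternatives run. The Srp9 probe lies at chr1:182116257-182116316 in mouse build mm7, the build of the array annotation. Of the other Srp9 probes, 1 also passed (-1.37, SE 0.29, adjusted p 0.036) and 1 did not (-0.98, SE 0.63, adjusted p 0.438). Srp14, which binds Srp9 as its partner, gave -0.64 (SE 0.29, adjusted p 0.252). The older-named Srp54a, the protein that binds the signal sequence, gave -0.77 on 1 probe (adjusted p 0.294) and -3.69 on another (adjusted p 0.0017). The Srp54a probe at -3.69 was well above background on only 2 of the 3 marker-positive arrays. The mouse genome holds near-identical Srp54 copies that these probes may share.

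The 3 subunits of the Sec61 channel all had differences below 0, with a median of -1.34, and none passed the test on the probe standing for the gene. Sec61a1, which forms the pore, read -0.24, -0.23 and -0.67 in marker-positive cells, against a lowest value of -0.50, a median of 0.58 and a highest of 1.05 in marker-negative cells. These ranges overlapped, and the difference was -0.76 (SE 0.39, adjusted p 0.324). The most 5′ Sec61a1 probe passed without overlap (-2.40, SE 0.36, adjusted p 0.0091), and another gave -0.11 (adjusted p 0.937). Sec61g, a small subunit of the channel, read 0.06, -0.0046 and 0.55 in marker-positive cells and 0.63 at the lowest, 1.77 at the median and 2.36 at the highest in marker-negative cells. The groups did not overlap, and the difference of -1.44 (SE 0.36) had an adjusted p of 0.065. Sec61b, the other small subunit, gave -1.34 (SE 0.41, adjusted p 0.112).

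The translocon-associated protein, 4 membrane subunits beside the channel, was mixed, with a median difference of -0.30 and 2 of its 4 genes above 0. Ssr4 read 1.08, 1.02 and 1.31 in marker-positive cells, against 1.87 to 3.32 in marker-negative cells, without overlap. Its difference of -1.36 (SE 0.32) narrowly missed the threshold with an adjusted p of 0.052, and a second Ssr4 probe that lies close by passed it (-1.30, SE 0.27, adjusted p 0.036). Ssr1 read -0.16, -0.36 and -0.41 in marker-positive cells and -1.17 at the lowest, -0.31 at the median and 0.15 at the highest in marker-negative cells. Ssr3 read 1.26, 1.09 and 0.15 in marker-positive cells and -0.64 at the lowest, 0.90 at the median and 1.78 at the highest in marker-negative cells. Both pairs of ranges overlapped widely, and the differences were 0.09 (SE 0.29) for Ssr1 and 0.15 (SE 0.51) for Ssr3. Ssr2 gave -0.68 (SE 0.33, adjusted p 0.292), and -0.31 without marker-positive replicate 3. The signal peptidase genes Spcs1, Spcs2 and Spcs3 gave -0.66, -0.98 and -0.68, and only the Spcs2 arrays did not overlap (1.38 to 1.69 in marker-positive cells, 1.74 to 3.36 in marker-negative cells). Spcs1 was at -0.40 without marker-positive replicate 2.

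Among the 8 chaperones and co-chaperones 7 had a difference below 0, with a median of -0.99, and none passed the test on the probe standing for the gene. Hspa5, the Hsp70 chaperone BiP of the ER, read 0.57, -0.05 and -1.74 in marker-positive cells, against -0.75 at the lowest, 0.39 at the median and 1.80 at the highest in marker-negative cells. Marker-positive replicate 3 was the lowest of all, replicates 1 and 2 lay within the marker-negative range, and the difference was -0.90 (SE 0.60, adjusted p 0.456). It was -0.23 without marker-positive replicate 3 and -1.39 without marker-positive replicate 1. Hsp90b1, the Hsp90 chaperone Grp94, read -1.27, -1.78 and -2.35 in marker-positive cells, against -1.98 at the lowest, -0.24 at the median and -0.04 at the highest in marker-negative cells. It lay below the reference on all 9 arrays, as did Pdia5, Xbp1 and Kdelr2, and the groups overlapped (-1.09, SE 0.50, adjusted p 0.267). Hyou1, a large Hsp70 relative that exchanges nucleotide on BiP, read -0.70, -0.54 and -0.58 in marker-positive cells, against 0.03 at the lowest, 1.15 at the median and 1.85 at the highest in marker-negative cells. The 3 marker-positive arrays were tightly grouped below the others, and the difference of -1.66 (SE 0.43) had an adjusted p of 0.068.

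Dnajc3, a J-domain partner of BiP, read -0.08, -0.79 and -0.32 in marker-positive cells, against 0.24 at the lowest, 1.21 at the median and 1.81 at the highest in marker-negative cells. These groups did not overlap either (-1.51, SE 0.38, adjusted p 0.065), and another of its 4 probes passed the test (-2.04, SE 0.41, adjusted p 0.0296). The remaining Dnajc3 probes did not pass, with -1.64 (SE 0.55, adjusted p 0.136) without overlap and -0.86 (SE 0.80, adjusted p 0.612) with overlap. The J-domain co-chaperones Dnajb11 and Dnajb9 gave -0.78 and -0.15, and the Dnajb9 ratios spread from 0.81 to 3.33 on marker-positive arrays. Without marker-positive replicate 3 the Dnajb9 difference was 0.67 and the Dnajb11 difference -0.42. Sdf2l1, which works with Dnajb11, gave -1.14 (SE 0.51, adjusted p 0.254), and -0.74 without marker-positive replicate 2. Canx, the membrane lectin chaperone calnexin, read 0.51, 0.30 and -0.20 in marker-positive cells, against -0.96 at the lowest, 0.05 at the median and 0.11 at the highest in marker-negative cells. Its difference of 0.39 (SE 0.29, adjusted p 0.503) was the highest of the 37, and its other 2 probes differed from it in sign. The older-named Manf, a small secreted ER protein, gave -1.34 (SE 0.37, adjusted p 0.081) without overlap.

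All 5 disulfide isomerases had differences below 0, with a median of -1.06. Pdia4 had the most negative of the 37: it read -0.79, -1.53 and -2.74 in marker-positive cells, against -0.82 at the lowest, 0.36 at the median and 0.85 at the highest in marker-negative cells. Marker-negative replicate 6 reached down to the highest marker-positive array, and the difference of -1.91 (SE 0.47, 3.75-fold) had an adjusted p of 0.058. Pdia6 read -0.45, -0.83 and -1.97 in marker-positive cells, against -0.63 at the lowest, 0.92 at the median and 1.63 at the highest in marker-negative cells. Again the ranges overlapped at their edges, with a difference of -1.72 (SE 0.55, adjusted p 0.121). Pdia3, the isomerase that acts with calnexin, gave -1.06 (SE 0.39, adjusted p 0.172), and P4hb, the founding isomerase and a subunit of collagen prolyl hydroxylase, gave -0.64 (SE 0.59, adjusted p 0.602). Leaving out marker-positive replicate 3 put P4hb at -0.22, and leaving out marker-negative replicate 2 at -0.38. Pdia5 gave -0.10 (SE 0.30, adjusted p 0.90).

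ER-associated degradation, which returns misfolded chains to the cytosol for the proteasome, had the lowest group median (-1.47, 2 genes). Herpud1, a membrane protein of the degradation complex and a known stress target, read 1.73, 1.57 and 1.32 in marker-positive cells, against 2.40 at the lowest, 2.98 at the median and 3.56 at the highest in marker-negative cells. Both groups were tight and clearly apart. The difference of -1.45 (SE 0.25, 2.73-fold lower) had an adjusted p of 0.016, the smallest of the 37, and its probe lies at chr8:92984261-92984320 in build mm7. The call was lost without marker-positive replicate 1 or 2 (adjusted p 0.0542 and 0.0688), with slide as a block (0.121) and with median centring (0.383). The adjusted p ran from 0.0016 to 0.383 over all alternatives, with differences from -1.76 to -1.33. Syvn1, the ubiquitin ligase Hrd1 of this complex, read 0.35, 0.37 and -0.55 in marker-positive cells, against 0.27 at the lowest, 1.85 at the median and 2.52 at the highest in marker-negative cells. The groups overlapped at the lower marker-negative arrays, and the difference was -1.50 (SE 0.57, adjusted p 0.186). The older-named Sel1l, the partner of Syvn1, gave -1.29 (SE 0.42, adjusted p 0.133) without overlap. Its other probes gave -0.71 (SE 0.68, adjusted p 0.620) and -2.74 (SE 0.97, adjusted p 0.159), and on both the groups overlapped. Of the 3 marker-positive arrays, the Sel1l probes at -1.29 and -0.71 were well above background on 2 and the probe at -2.74 on 1.

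The stress sensors and transcription factors had a group median of -0.55 and none was called. Differences were -1.41 for Creb3l1, -1.38 for Atf4 and -0.89 for Ddit3, and -0.22 for Atf6, -0.13 for Xbp1 and -0.01 for Ern1. Atf4, the factor made when translation initiation is curbed, read 0.76, 0.20 and -0.68 in marker-positive cells, against 0.75 at the lowest, 1.51 at the median and 2.18 at the highest in marker-negative cells. Only marker-positive replicate 1 reached the marker-negative range (-1.38, SE 0.37, adjusted p 0.079). Its target Ddit3 (CHOP) read -1.03, -0.81 and -1.35 in marker-positive cells, against -0.68 at the lowest, -0.11 at the median and 0.20 at the highest in marker-negative cells. These did not overlap, with a difference of -0.89 (SE 0.27, adjusted p 0.107). Creb3l1, a membrane-bound factor of secretory cells, read -0.20, -0.03 and 0.81 in marker-positive cells, against 0.29 at the lowest, 1.92 at the median and 2.64 at the highest in marker-negative cells. Marker-positive replicate 3 lay within the marker-negative range (-1.41, SE 0.53, adjusted p 0.179).

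The sensor genes Atf6 and Ern1, and Xbp1, gave small differences with both groups intermixed. The sensor Eif2ak3, which is not a member, read 1.13, 1.68 and -2.08 in marker-positive cells, against 0.31 to 2.98 in marker-negative cells. Its difference was -1.21 (SE 0.86, adjusted p 0.492). Xbp1, the factor whose mRNA Ern1 splices, read -1.86, -2.26 and -2.53 in marker-positive cells, against -2.64 at the lowest, -2.10 at the median and -1.49 at the highest in marker-negative cells. The difference was -0.13 (SE 0.30, adjusted p 0.869). Splicing of Xbp1 was not measured here. Atf6 read 0.74, 0.34 and 0.95 in marker-positive cells, against 0.55 at the lowest, 0.85 at the median and 1.39 at the highest in marker-negative cells (-0.22, SE 0.25, adjusted p 0.696). Ern1 read 0.38, -0.31 and 0.14 in marker-positive cells, against -0.76 at the lowest, 0.18 at the median and 0.60 at the highest in marker-negative cells (-0.01, SE 0.37, adjusted p 0.992). A p that misses the threshold does not show equal levels. Among the carriers, Sec23b and Sec24d of the COPII coat gave -0.87 and -0.34, and the cargo receptor Lman1 gave -0.76. Kdelr2, which returns escaped ER proteins, gave -0.17. None of these carriers was called on the probe standing for the gene. Lman1 was at -0.14 without marker-positive replicate 3 and at -1.16 without marker-positive replicate 2.

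**Figure D3:**
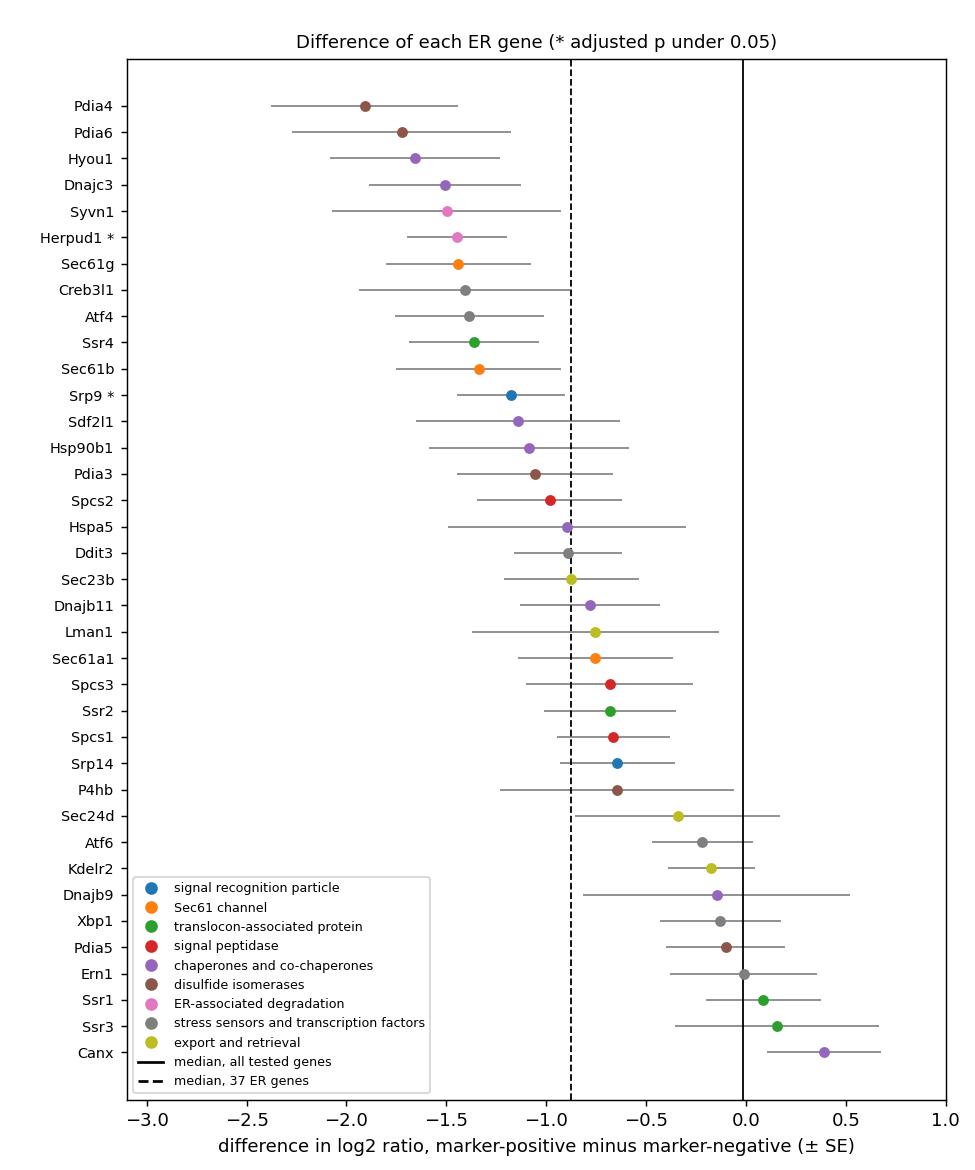
Difference in log2 ratio, marker-positive minus marker-negative, for each of the 37 genes (x axis; points are limma estimates and bars are ± SE), coloured by role, with lines at the median of the 37 genes (dashed) and of all tested genes (solid). The points run from -1.91 for Pdia4 to 0.39 for Canx, and 34 of 37 lie left of 0.

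Probes of the same gene did not always agree. Of the 65 tested probes 11 were called lower (16.9%, against 1.99% of all probes) and 0 higher (against 1.48% of all probes), in 10 genes. More than 1 probe was tested in 17 genes. Pdia6 gave -3.88 on its most 5′ probe (SE 0.55, adjusted p 0.0068), and -1.72, -0.74 and 0.23 on the other 3. On that 5′ probe the marker-positive arrays read -3.21, -3.47 and -2.0, against 0.13 to 2.11 in marker-negative cells. Canx gave -2.58 on its most 5′ probe (SE 0.41, adjusted p 0.012), where marker-positive arrays read -0.63, -1.78 and -1.26 and marker-negative arrays 0.56 to 2.21, and gave -0.52 and 0.39 on the other 2. Sec61a1 gave -2.40 on its most 5′ probe (SE 0.36, adjusted p 0.0091), where marker-positive arrays read 0.34, 0.21 and 0.27 and marker-negative arrays 2.01 to 3.68, and gave -0.76 and -0.11 on the other 2. Spcs3 (-2.23), Syvn1 (-2.40) and Lman1 (-1.96) were called on a 5′ probe as well, and none of the 3 on the probe that stood for the gene. Each of these 3 5′ probes was well above background on only 2 of the 3 marker-positive arrays, but on all 6 marker-negative arrays.

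In 16 of the genes the outermost probes lay at least 500 bases apart along the genome. The 5′ probe had a median difference of -1.32 and the 3′ probe of -0.75, the 5′ value was the lower in 12 of 16 (75%), and 6 of the 5′ probes but 1 of the 3′ probes were called lower. Over all 5212 genes with such probes the medians were -0.21 at the 5′ and 0.13 at the 3′ end, the 5′ value was the lower in 70.4%, and 208 against 50 were called lower. The median over those 5212 genes of the 5′ minus the 3′ ratio was -0.28, -0.36 and 0.13 on marker-positive arrays, against 0.07 to 0.35 on marker-negative arrays. For genes with outermost probes under 500 bases apart it was -0.03 to 0.05 on marker-positive and -0.02 to 0.05 on marker-negative arrays. RNA quality was not measured in the files used here, and the part of probe position in the ER differences was not tested. With the most 3′ probe standing for each gene, the median difference was -0.78, with 34 of 37 below 0 and the same 2 genes called, against 1.42% of all genes. With the most 5′ probe it was -1.06, with 36 of 37 below 0 and 8 called, against 2.18% of all genes. With the mean of a gene's probes all 37 differences were below 0 and 4 were called (Herpud1, Pdia6, Spcs2 and Ssr4), against 1.73% of all genes.

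**Figure D4:**
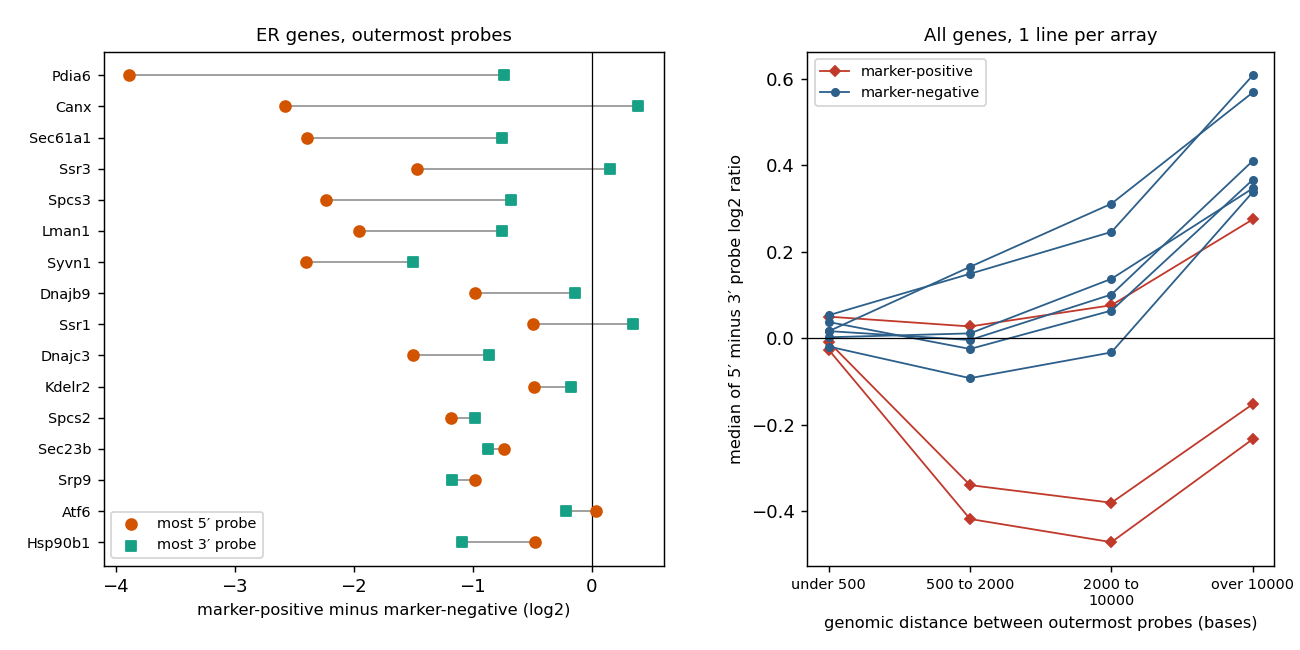
Left, the difference (x axis, log2) at the most 5′ probe (circles) and the most 3′ probe (squares) of the 16 ER genes whose outermost probes lie at least 500 bases apart, with circles left of squares in 12. Right, for all genes, the median 5′ minus 3′ log2 ratio (y axis) on each array by the distance between the outermost probes (x axis), with red diamonds for marker-positive and blue circles for marker-negative arrays. In the drawn distance classes from 500 bases up, the medians ran from -0.47 to 0.28 on marker-positive and from -0.09 to 0.61 on marker-negative arrays. Pooled over those classes, which is not drawn, they were -0.28, -0.36 and 0.13 on marker-positive and 0.07 to 0.35 on marker-negative arrays.

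Other genes of the same pathway, not among the 40 names, also lay mostly below 0. This list too was chosen with earlier results of these data known, so its shares are not independent support for those of the members. Of 61 such genes, all tested, 50 had a difference below 0, the median was -0.59, 5 were called lower (8.20%, against 1.67% of all genes) and 0 higher. Derl3, a secretory-cell channel protein of ER-associated degradation, had the largest of these called differences, with 1.39, 1.17 and 0.80 in marker-positive cells, against 2.73 to 4.90 in marker-negative cells (-2.77, SE 0.53, adjusted p 0.024). Edem2, a mannosidase-like protein that marks misfolded glycoproteins, gave -2.42 (SE 0.56, adjusted p 0.048). Its most 5′ probe gave -0.49 and did not pass (adjusted p 0.238). Sec11c, a catalytic subunit of signal peptidase, gave -1.65 (SE 0.36, adjusted p 0.042), and Erp44, an oxidoreductase that retains clients in the early secretory pathway, gave -1.38 (SE 0.27, adjusted p 0.025). Neither outermost Erp44 probe passed, with -0.22 on the most 3′ (adjusted p 0.793) and -1.82 on the most 5′ (adjusted p 0.075). Asns, asparagine synthetase and a known Atf4 target, read -4.03, -3.93 and -6.04 in marker-positive cells, against -3.15 to -1.82 in marker-negative cells (-2.18, SE 0.49, adjusted p 0.044). In each of these 5, on the probe standing for the gene, all marker-positive arrays lay below all marker-negative arrays. The 5 were picked by the test on the same arrays, so this adds nothing to their calls. Such separation held for 6.47% of all genes, and among the 61 also for uncalled ones such as Agr2 and Creld2. Without marker-positive replicate 1, marker-positive replicate 2 or marker-negative replicate 1, and with slide as a block or median centring, none of the 61 was called. By list, 8 of 8 degradation genes lay below 0 (2 called), 6 of 7 oligosaccharyltransferase genes (0 called, median -0.99), 9 of 10 stress response genes (1 called), 9 of 10 targeting and translocation genes (1 called), 6 of 10 oxidative folding and lectin cycle genes (1 called), 10 of 13 vesicle transport genes (0 called) and 2 of 3 genes of secretory cell folding (0 called).

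The number of ER genes called depended on the settings more than their direction did. Over the 21 alternative fits the median difference of the 37 genes stayed between -1.06 and -0.67 and none was called higher. The count called lower was 0 with median centring (0.428% of all genes), with slide as a block (0.101%) and without marker-positive replicate 1 (0.453%) or 2 (0.443%). It was 6 without marker-negative replicate 4 (2.08% of all genes) and 3 without marker-negative replicate 6 (1.2%). It was 1 without marker-negative replicate 1 (0.756%), 2 (0.942%), 3 (1.38%) or 5 (0.851%). Requiring both channels well above background on all arrays gave 7, against 2.75% of all genes. Weighting arrays by quality, which gave marker-positive replicate 3 a weight of 0.24, gave 18 of 37, against 11.4% of all genes. According to the authors' deposited table, 34 of the 37 genes are lower in the stem cell group, 15 of them with an adjusted p under 0.05 (40.5%, against 3.12% of all rows), and Herpud1 is listed there as 2.69-fold lower with an adjusted p of 0.0017. The shares are of unlike sets. Each of the 37 genes is counted by its brightest tested probe, whereas the 43379 rows include dim probes and several probes of a gene. The columns of the authors' deposited table are named as in limma output, without the settings used. Its fold and log2 columns carry opposite signs, and the fold column, headed stem over non-stem, matches the direction used here.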

How the data were processed

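The 9 sorted-cell RNA samples were measured on 2-colour Agilent mouse arrays. Spot intensities were deposited as scanner output, which the authors extracted with Agilent Feature Extraction, version 10.7 in the submitters' processing notes and 10.7.3.1 per the file headers. Deposited background-subtracted, dye-normalized intensities served as an alternative. The authors' deposited table gives a signed fold (a score with no values between -1 and 1), a log2 value and adjusted p-values per probe, quoted only where named.

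From the intensities, R 4.3.3 and limma 3.58.1 computed normexp background correction (offset 50), loess within arrays and log2 Cy5/Cy3. Control and outlier spots were left out and replicate spots averaged. Probes with Cy5 well above background on at least 3 of 9 arrays were tested (28330 of 41174), two-sided, with a robust intensity trend and Benjamini-Hochberg adjustment. The brightest tested probe stands for a gene. Symbols were updated through RefSeq; 8440 probes kept the name in the file.

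On simulated arrays over the tested probes, the fit found 12% of 100 added log2 shifts of size 1 and 45% of 100 of size 2, with 5% of 60 calls false. Precision is limited by the number of arrays.

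Members and lists were chosen with earlier results of these data known. Named in full are called members, the extreme differences, the main chaperones, channel pore and stress factors, and called pathway genes. Alternatives covered background correction, normalization, filters, variance model, array weights, slide, each array left out and the choice of probe. Coordinates of probes are in the array's build, mm7, and those of Lman1 were used for probe order but are not printed.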

Additional observations from a re-analysis of the deposited data

How the results depend on the processing

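The median difference of the 37 genes kept its sign in every alternative run, from -1.06 to -0.67. The count called lower (2) and the pathway count (5 of 61) moved more. Median centring gave 0 and 0, no filter on dim probes 1 and 2, array weights 18 and 21, and slide as a fixed block 0 and 0. Both channels detected on all arrays gave 7 members, and no trend with no robust fit 1. Leaving out each array in turn gave 0 to 6 members and 0 to 6 pathway genes. The mean of a gene's probes gave 4 members, and the most 5′ probe, an alternative chosen after seeing the data as was the most 3′ probe, gave 8. Adding the 3 older-named genes left 2 called and a median of -0.88. Over all genes, 331 were called lower and 312 higher in the main setting, 85 and 141 with median centring, 362 and 221 with processed signals, and 20 and 128 with slide as a block. The cause of these moves was not tested.

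Signs turned only in genes with no call in the main setting. Ern1 gave 0.013 with the scanner's processed signals. Pdia5 gave 0.12, Xbp1 0.12, Kdelr2 0.12, Atf6 0.077 and Dnajb9 0.071 with median centring. On Cy5 alone Ssr1 gave -0.044 and Xbp1 0.062. Dnajb9 gave 0.28 and Ssr1 -0.0059 with array weights, and Ssr1 gave -0.16 with slide as a block. With the mean of probes Ssr1 gave -0.022, Ssr3 -0.45 and Canx -0.90. On the most 5′ probe Ssr1 gave -0.49, Ssr3 -1.47, Canx -2.58 and Atf6 0.032, and of these Canx passed the test. With each array left out in turn, Dnajb9 ran from -0.58 to 0.67, Ern1 from -0.18 to 0.18, Pdia5 from -0.24 to 0.11, Ssr3 from -0.11 to 0.50, Xbp1 from -0.31 to 0.029 and Ssr1 from -0.069 to 0.19.

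No paired analysis was possible because the labels give no replicate numbers to pair arrays across groups. Slide, from the file headers, was used as a block, and within slide 1 and within slide 2 there is a value but no test.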
